A study of Mus musculus with 4 samples.

Results

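*Vegfa*, *Cxcl12*, *Cx3cl1* and *Pf4* are 4 genes of the inflammatory cytokine and receptor panel. They encode a growth factor of blood vessels and some of the panel's chemokines acting on or made by endothelium. They were chosen by gene symbol, and make up 4 of the 84 target genes measured and 4 of the 77 that gave a signal on every array. FVB mice received intramuscular injections of adeno-associated virus, either carrying murine E-selectin (E-sel/AAV2/2) or carrying LacZ, a bacterial reporter gene (LacZ/AAV2/2, the control). In both groups hindlimb ischemia was then induced by closing the femoral artery (per the methods, the femoral vein too), and both received L-NAME, a nitric oxide synthase inhibitor, at 40 mg/kg. Ischemic adductor and gastrocnemius muscle was taken on day 21. The series text states that RNA of 3 mice was combined per group and that the plate was run in duplicate, so each group was 1 pool of RNA measured on 2 arrays. Read that way, every SD, SE and p-value holds assay error only and compares pools, not animals. Over the 77 genes the ΔCt differences between the 2 arrays of a pool scattered with an SD of 1.34 cycles in the LacZ/AAV2/2 pool and 1.60 cycles in the E-sel/AAV2/2 pool, while the positive PCR control wells averaged 21.0 to 21.2 on all 4 arrays. Whether both arrays of a group carried the same RNA was not tested. The methods give adult mice of both sexes. The sex of the pooled animals and the promoter driving the transgene were not given in the sources used here. The panel holds no gene particular to muscle fibers, so the tissue label was not checked against the data.

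VEGF-A, the product of *Vegfa*, is made by muscle fibers and other cells short of oxygen and drives endothelial cells to divide, migrate and form sprouts. CXCL12, made by stromal and endothelial cells, attracts CXCR4-bearing progenitor and immune cells and is angiogenic. CX3CL1 (fractalkine) is an unusual chemokine anchored in the endothelial membrane, where it captures CX3CR1-bearing monocytes. PF4 (platelet factor 4, also CXCL4) is stored in platelet granules and inhibits endothelial growth. It belongs with the CXC chemokines that lack the ELR motif, most of which are angiostatic. CXCL12 also lacks the motif, but promotes vessel growth. Of the receptors, VEGFR-1, VEGFR-2, CXCR4 and CX3CR1 were not analysed here, whereas *Cxcr3*, whose human counterpart has been described as a receptor for PF4, was on the panel. In whole muscle, fewer cells of a type and less RNA per cell cannot be told apart.

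Each well gave a threshold cycle (Ct), the number of PCR cycles needed to reach a fixed fluorescence. Abundant transcripts have a low Ct, and at full PCR efficiency 1 cycle stands for a 2-fold difference. ΔCt subtracts from it the mean Ct of 5 reference genes (*Gapdh*, *Actb*, *Gusb*, *B2m* and *Hsp90ab1*) of that array, and -ΔCt is the normalized level on the log2 scale. The mean Ct of the reference genes ranged from 23.8 to 25.2 over the 4 arrays, latest on LacZ/AAV2/2 replicate 1, where 46 target genes had a Ct under 35 against 64 to 65 elsewhere. LacZ/AAV2/2 replicate 2 stood apart in its reverse transcription control wells, with a mean Ct of 24.7 against 23.1 to 23.6 on the other arrays. The reference genes did not move together: against their own mean, the log2 fold change of E-sel/AAV2/2 over LacZ/AAV2/2 was 1.44 for *B2m* and -1.11 for *Gapdh*.

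None of the 4 genes differed between the pools in limma after Benjamini-Hochberg adjustment, where 4 of the 77 genes tested (5.19%) were called at an adjusted p-value under 0.05. All 4 estimates lay below 0, as did those of 53.2% of the genes tested. *Cx3cl1* and *Cxcl12* had the larger estimates, at 4.36-fold and 2.26-fold lower with E-sel/AAV2/2, and decreases of at least 2-fold by mean -ΔCt were seen in 28.6% of the genes tested. The estimates of *Vegfa* and *Pf4* were 1.27-fold and 1.15-fold lower. Both E-sel/AAV2/2 arrays lay below both LacZ/AAV2/2 arrays for 3 of the 4 genes, the exception being *Vegfa*, and for 26% of the genes tested. Over 13 ways of scaling the data, the mean of the 5 reference genes among them, this separation held in 10 for *Cx3cl1*, in 7 for *Cxcl12*, in 5 for *Pf4* and in 2 for *Vegfa*.

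**Figure D1:**
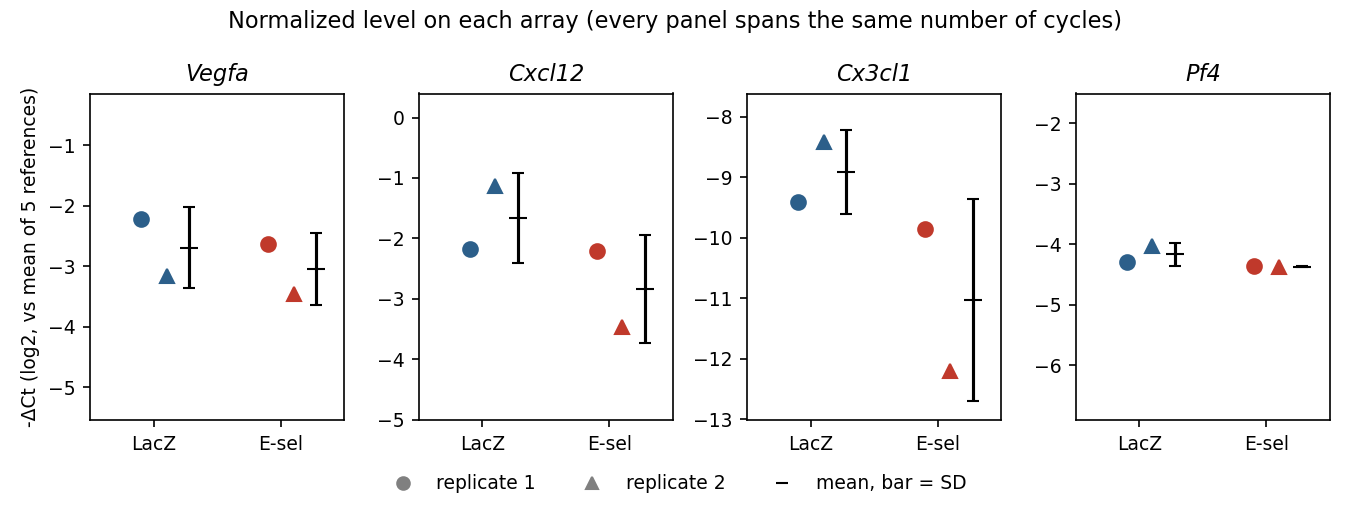
Normalized level (-ΔCt, log2 scale, vertical axis) of each gene on the 2 LacZ/AAV2/2 arrays (blue) and the 2 E-sel/AAV2/2 arrays (red), circles for replicate 1 and triangles for replicate 2, with the mean and SD of each group in black; the panels span the same number of cycles from different starting levels. The *Pf4* points lie within 0.344 cycles of each other, the *Vegfa* points are higher in replicate 1 than in replicate 2 of either group, and the replicate 2 arrays of *Cxcl12* and *Cx3cl1* lie far apart while those of replicate 1 lie close.

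*Vegfa*, the growth factor itself, was detected early. E-sel/AAV2/2 replicates 1 and 2 gave Ct values of 26.96 and 27.30, and LacZ/AAV2/2 replicates 1 and 2 gave 27.47 and 27.19. Before normalization these values spanned 0.51 cycles, the second-narrowest range of the 77 genes, whose median range was 3.13 cycles. After normalization its ΔCt was 2.62 and 3.46 with E-sel/AAV2/2 and 2.22 and 3.17 with LacZ/AAV2/2. The groups thus overlapped, and in each group replicate 1 was the higher array. Its mean ΔCt was 3.04 ± 0.591 for the E-sel/AAV2/2 pool and 2.69 ± 0.668 for the LacZ/AAV2/2 pool (SD, n = 2 arrays each), a log2 fold change of -0.35 (SE 0.97, 95% confidence interval -2.44 to 1.75, limma adjusted p = 0.847). The 2 arrays of a group differed by 0.836 and 0.944 cycles, more than the difference between groups. Without normalization the Ct of *Vegfa* averaged 27.2 on the replicate 1 and on the replicate 2 arrays, whereas the reference genes averaged 24.8 on the former and 23.9 on the latter, 0.86 cycles earlier. *Vegfa* turned to a log2 fold change of 0.77 when *Gapdh* alone served as reference, to 0.20 with no reference and to 0.12 without LacZ/AAV2/2 replicate 1.

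*Pf4*, the angiostatic member, was the steadiest. In the same array order its Ct values were 28.70 and 28.22 for E-sel/AAV2/2 against 29.55 and 28.06 for LacZ/AAV2/2, the latest on LacZ/AAV2/2 replicate 1, where the reference genes were latest too. Its ΔCt was accordingly 4.36 and 4.38 with E-sel/AAV2/2 and 4.30 and 4.04 with LacZ/AAV2/2. The groups did not overlap, but the gap between the nearest arrays was 0.062 cycles. The mean ΔCt was 4.37 ± 0.0113 for the E-sel/AAV2/2 pool and 4.17 ± 0.188 for the LacZ/AAV2/2 pool (SD, n = 2 arrays each), a log2 fold change of -0.20 (SE 0.94, 95% confidence interval -2.23 to 1.83, limma adjusted p = 0.899), which was 0.91 with *Gapdh* as the only reference. The SE exceeds the spread of *Pf4* itself because limma draws each gene's variance toward that of the panel. Over the 4 arrays ΔCt of *Pf4* spanned 0.344 cycles, the narrowest range of the 77 genes tested, against 1.24 for *Vegfa*, 2.33 for *Cxcl12*, 3.79 for *Cx3cl1* and a median of 2.32. This rank depended on the reference: *Pf4* was also narrowest with *Hsp90ab1* alone, the third narrowest with *Gusb* alone and the fourth with the median of the target genes. It ranked 8 with raw Ct, 11 with *Actb* alone, 17 with *Gapdh* alone and 19 with *B2m* alone. *Vegfa* spanned less than *Pf4* with raw Ct (0.51 against 1.49 cycles), with *Gapdh* alone (0.95 against 1.74) and with *Actb* alone (1.34 against 1.51).

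**Figure D2:**
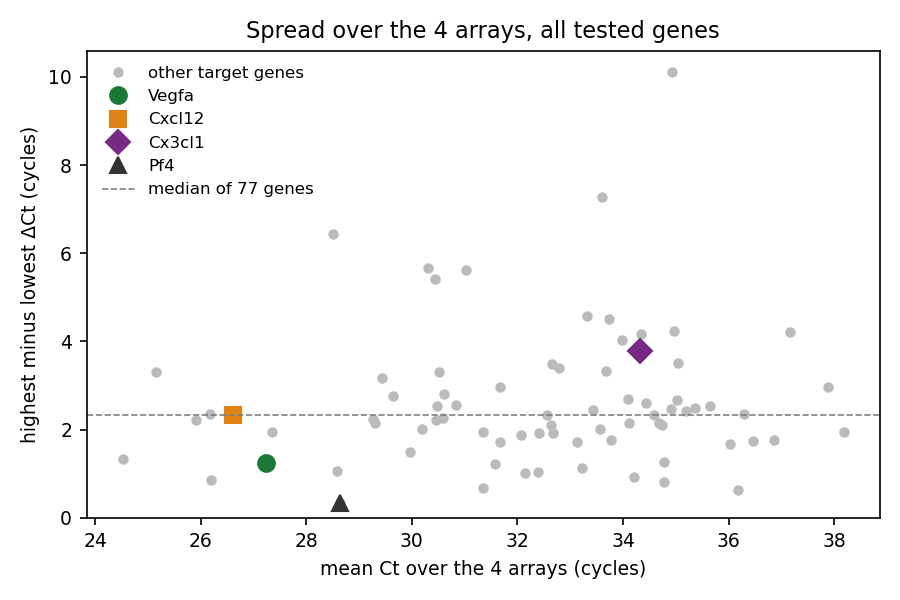
Difference between the highest and lowest ΔCt over the 4 arrays (vertical axis, cycles) against mean Ct (horizontal axis, cycles) for each of the 77 genes tested, with the 4 genes marked and the dashed line at the median of 2.32 cycles. *Pf4* has the narrowest spread at 0.344 cycles, *Cxcl12* lies at the median and *Cx3cl1* lies above it at 3.79 cycles.

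*Cxcl12*, the CXCR4 ligand, was also detected early but spread more widely than *Vegfa*. E-sel/AAV2/2 gave Ct values of 26.54 and 27.31 and LacZ/AAV2/2 gave 27.43 and 25.16, which put ΔCt at 2.20 and 3.47 against 2.18 and 1.14. LacZ/AAV2/2 replicate 2 was the high array and E-sel/AAV2/2 replicate 2 the low one, while the replicate 1 arrays of the 2 groups differed by 0.022 cycles. The mean ΔCt was 2.84 ± 0.895 for the E-sel/AAV2/2 pool and 1.66 ± 0.740 for the LacZ/AAV2/2 pool (SD, n = 2 arrays each), a log2 fold change of -1.18 (SE 0.99, 95% confidence interval -3.32 to 0.96, limma adjusted p = 0.507). Taken by replicate number, the log2 difference was -0.02 in replicate 1 and -2.33 in replicate 2. The estimate moved to -0.65 without LacZ/AAV2/2 replicate 2, to -0.55 without E-sel/AAV2/2 replicate 2, to -1.81 without E-sel/AAV2/2 replicate 1 and to -0.06 with *Gapdh* as the only reference.

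*Cx3cl1*, the membrane-bound chemokine, was detected late, at Ct values of 34.19 and 36.05 for E-sel/AAV2/2 against 34.65 and 32.44 for LacZ/AAV2/2. Few template molecules enter a well at such cycles, and precision is poor. Its ΔCt was 9.85 and 12.2 with E-sel/AAV2/2 and 9.40 and 8.42 with LacZ/AAV2/2, so that the groups did not overlap and the nearest arrays were 0.452 cycles apart. The mean ΔCt was 11.0 ± 1.67 for the E-sel/AAV2/2 pool and 8.91 ± 0.697 for the LacZ/AAV2/2 pool (SD, n = 2 arrays each), a log2 fold change of -2.12 (SE 1.06, 95% confidence interval -4.41 to 0.16, limma adjusted p = 0.366). This was the fourth lowest estimate of the 77 genes, with an unadjusted limma p-value of 0.0663. The difference was -0.45 in replicate 1 and -3.79 in replicate 2 on the log2 scale. Leaving out E-sel/AAV2/2 replicate 2, the array with the Ct of 36.05, brought the estimate to -0.94, and setting Ct values above 35 to 35 brought it to -1.60. Without E-sel/AAV2/2 replicate 1 it was -3.30. Under *Gapdh* alone it was -1.01, and the groups then overlapped, as they did with *Gusb* alone and with raw Ct.

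*Cxcl12* and *Cx3cl1* ordered the arrays alike, LacZ/AAV2/2 replicate 2 highest, then LacZ/AAV2/2 replicate 1, E-sel/AAV2/2 replicate 1 and E-sel/AAV2/2 replicate 2. The bases just before their start sites are shown for these genes because their levels ran in the same order. The windows are the 250 bases before the start annotated by RefSeq, build GRCm38.p6, both on the plus strand, *Cxcl12* at chr6:117168285-117168534 and *Cx3cl1* at chr8:94771930-94772179. Capitals mark GC boxes (GGGCGG, on either strand) and a TATA box (TATAAA, on either strand).
Cxcl12: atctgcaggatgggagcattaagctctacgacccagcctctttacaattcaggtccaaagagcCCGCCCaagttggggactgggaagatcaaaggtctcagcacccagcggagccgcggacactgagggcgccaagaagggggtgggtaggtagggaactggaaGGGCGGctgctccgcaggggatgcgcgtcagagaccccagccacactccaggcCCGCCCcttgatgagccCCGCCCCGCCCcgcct
Cx3cl1: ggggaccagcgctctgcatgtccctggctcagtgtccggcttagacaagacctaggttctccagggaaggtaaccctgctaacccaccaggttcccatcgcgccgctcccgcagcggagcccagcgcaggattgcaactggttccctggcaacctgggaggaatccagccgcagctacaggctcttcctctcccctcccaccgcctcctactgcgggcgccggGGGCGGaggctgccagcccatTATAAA
The *Cxcl12* window held 5 GC boxes, the last 2 of which share a base, and no TATA box. The *Cx3cl1* window held 1 GC box and 1 TATA box, the latter directly before the annotated start. Of all 32851 RefSeq windows of this length, 32.7% held a GC box and 12.4% a TATA box. The first *Vegfa* window (chromosome 17) held 2 GC boxes and the *Pf4* window (chromosome 5) none, and neither held a TATA box. The core of the hypoxia response element (ACGTG, on either strand), found in 16.6% of windows, was in none of these 4 windows. It was present in the window of the second annotated *Vegfa* start, at chr17:46025164-46025413 on the minus strand. That window lies downstream of the first *Vegfa* start, whose own window is chr17:46032378-46032627 on the same strand. The match in it was therefore not read as a promoter element. These matches describe the letters alone.

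The balance of angiogenic to angiostatic transcript was read from the ratio of each gene to *Pf4* on the same array, in which the reference genes cancel. The size of such a ratio depends on the efficiency of both assays, so only its change between arrays is compared. The *Vegfa* to *Pf4* ratio was 3.34 and 1.89 on E-sel/AAV2/2 replicates 1 and 2 and 4.23 and 1.83 on LacZ/AAV2/2 replicates 1 and 2. The arrays thus separated by replicate number rather than by vector: the log2 ratio averaged 1.91 on the replicate 1 arrays and 0.895 on the replicate 2 arrays, but 1.33 ± 0.580 for the E-sel/AAV2/2 pool and 1.48 ± 0.856 for the LacZ/AAV2/2 pool (SD, n = 2 arrays each). The difference between the pools was -0.14 on the log2 scale (exact two-sided permutation p = 1). It was -0.34 in replicate 1 and 0.05 in replicate 2, and it turned to 0.46 without LacZ/AAV2/2 replicate 1 and to 0.27 without E-sel/AAV2/2 replicate 2. The fall of the ratio between replicate numbers came from *Pf4*, whose Ct averaged 29.1 on the replicate 1 and 28.1 on the replicate 2 arrays. The Ct of *Vegfa* averaged 27.2 on both, and that of the reference genes 24.8 and 23.9.

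For the chemokines the ratio was lower in the E-sel/AAV2/2 pool mainly through replicate 2. The *Cxcl12* to *Pf4* ratio was 4.47 and 1.88 for E-sel/AAV2/2 against 4.35 and 7.46 for LacZ/AAV2/2, and these groups overlapped. Its log2 difference was -0.97 (exact two-sided permutation p = 0.667), made up of 0.04 in replicate 1 and -1.99 in replicate 2. Leaving out E-sel/AAV2/2 replicate 2 gave -0.35, leaving out LacZ/AAV2/2 replicate 2 gave -0.58, and leaving out E-sel/AAV2/2 replicate 1 gave -1.60. The *Cx3cl1* to *Pf4* ratio was 0.0223 and 0.00439 for E-sel/AAV2/2 against 0.0292 and 0.0480 for LacZ/AAV2/2, with no overlap. Its log2 difference was -1.92 (exact two-sided permutation p = 0.333), -0.39 in replicate 1 and -3.45 in replicate 2, and it was -0.75 without E-sel/AAV2/2 replicate 2. With 2 arrays against 2 the smallest p-value this test can give is 0.333, and each of the 3 was 1 after Benjamini-Hochberg adjustment. Between the angiogenic genes, the log2 ratio of *Vegfa* to *Cxcl12* was -0.42 and 0.01 for E-sel/AAV2/2 against -0.04 and -2.03 for LacZ/AAV2/2, so that LacZ/AAV2/2 replicate 2 stood alone.

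**Figure D3:**
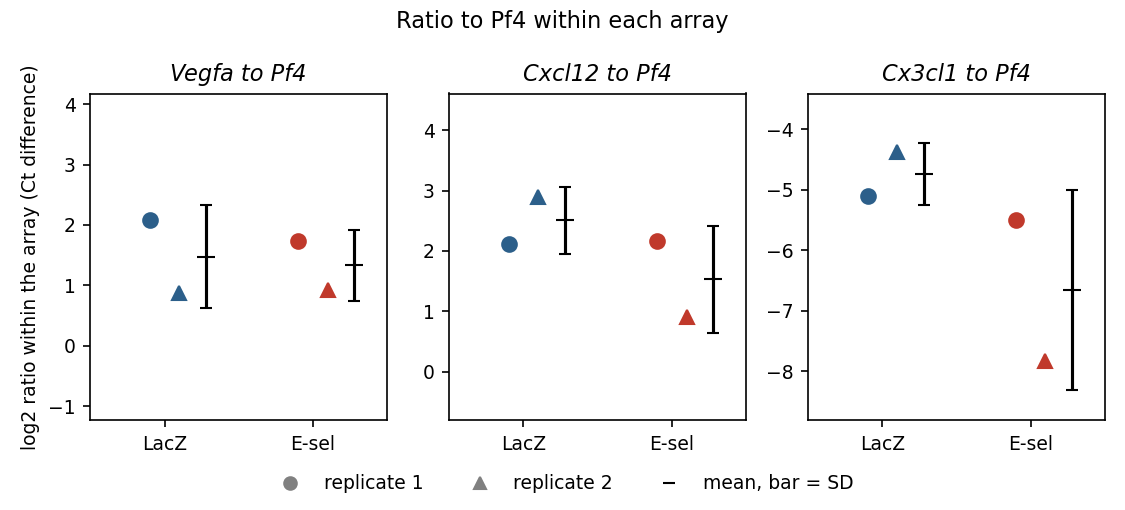
Log2 ratio of *Vegfa*, *Cxcl12* and *Cx3cl1* to *Pf4* within each array (vertical axis, difference in Ct), LacZ/AAV2/2 in blue and E-sel/AAV2/2 in red, circles for replicate 1 and triangles for replicate 2, with group mean and SD in black. The *Vegfa* to *Pf4* ratio falls from an average of 1.91 on the replicate 1 arrays to 0.895 on the replicate 2 arrays with either vector, and the chemokine ratios differ between vectors on the replicate 2 arrays.

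Because a change of reference shifts all genes by the same amount, the distances between the 4 estimates were the same under every reference. The median log2 fold change of the 77 genes was -0.19. Relative to it *Pf4* lay at -0.01, *Vegfa* at -0.15, *Cxcl12* at -0.98 and *Cx3cl1* at -1.93. With *Gapdh* as the only reference the panel median was 0.92 and with *B2m* alone -1.64, and the estimate of *Vegfa* ran from -1.79 to 0.77 between these references, that of *Pf4* from -1.65 to 0.91. Over all settings tried the adjusted p-value of limma ran from 0.317 to 0.991 for *Vegfa*, from 0.123 to 0.966 for *Cxcl12*, from 0.0771 to 0.922 for *Cx3cl1* and from 0.337 to 0.990 for *Pf4*.

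**Figure D4:**
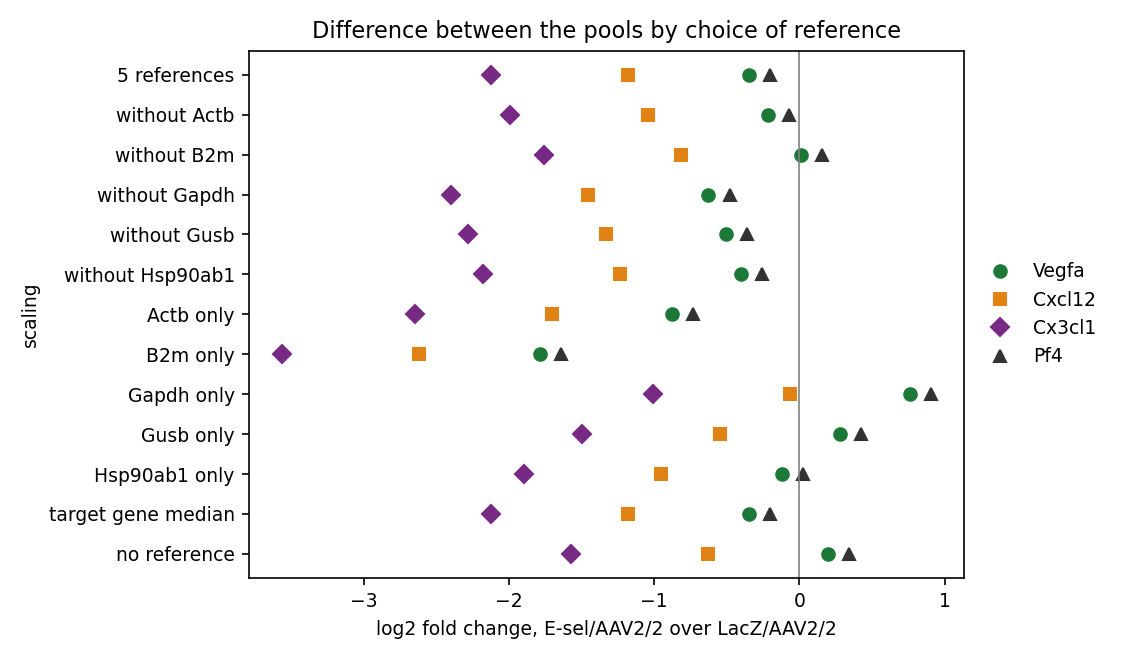
Log2 fold change of E-sel/AAV2/2 over LacZ/AAV2/2 (horizontal axis) of the 4 genes under each scaling (vertical axis): the mean of the 5 reference genes, each one left out, each one alone, the median of the target genes, and no reference. The order of the genes is fixed, *Cx3cl1* and *Cxcl12* stay below 0 throughout, down to -0.06 for *Cxcl12* with *Gapdh* alone, and *Vegfa* and *Pf4* lie on either side of 0.

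The genes with the most similar course over the 4 arrays were found from the root mean square difference between centred -ΔCt values. For *Vegfa* they were *Tnfsf10*, the death ligand TRAIL, at 0.116 cycles and *Il1r1*, the signalling receptor of interleukin 1, at 0.344 cycles. *Tnfsf10* had a Ct of 31.46 and 31.53 with E-sel/AAV2/2 and of 31.71 and 31.61 with LacZ/AAV2/2, and so varied less before normalization than *Vegfa*. For *Cx3cl1* they were the growth factor *Bmp2* at 0.252 cycles and the chemokine receptor *Ccr10* at 0.424 cycles. *Cxcl12* lay close to the chemokine receptor *Ccr1*, at 0.261 cycles. For *Pf4* they were the alarmin *Il33* at 0.196 cycles and *Nampt*, an enzyme of NAD synthesis, at 0.220 cycles. *Cxcl12* was the fifth most similar gene to *Cx3cl1*, at 0.610 cycles, whereas *Pf4* was seventh for *Vegfa*, at 0.522 cycles.

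Other panel genes related to vessel growth were described by list. None of the 4 genes of CXCR2 and its ELR-bearing ligands, which attract neutrophils and are angiogenic, was called in either direction. Their median log2 fold change was -0.97, from 1.90 for the receptor *Cxcr2* to -1.48 for the ligand *Cxcl15*, and it turned to 0.14 with *Gapdh* alone and to 0.59 without LacZ/AAV2/2 replicate 2. None of the 4 genes of CXCR3 and its interferon-induced, angiostatic ligands was called either. Their median was 0.64, from 2.18 for *Cxcl9* to -0.19 for *Cxcl11*, and it turned to -0.80 with *B2m* alone and to -0.24 without LacZ/AAV2/2 replicate 1. *Pf4* had an estimate near that of *Cxcl11* and below those of *Cxcl9*, *Cxcl10* (0.54) and *Cxcr3* (0.75). Of 8 other ligands with known effects on vessels none was called, and their median was -0.36, from 0.93 for *Tnf* to -2.57 for *Bmp2*, and it lay above 0 without LacZ/AAV2/2 replicate 2 (0.09), under *Gusb* alone (0.27), under *Gapdh* alone (0.76), with raw Ct (0.19) and with *B2m* left out of the references (0.0025).

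Genes of infiltrating cells were set beside these values. The 8 myeloid genes, all of which had a Ct on every array, had a median log2 fold change of -1.27, with 0 called in either direction and 4 of 8 lower on both E-sel/AAV2/2 arrays, against 26% of all genes tested. The median was -0.41 without LacZ/AAV2/2 replicate 2 and -0.15 with *Gapdh* alone, and the estimates of *Il1b* (0.17) and *Osm* (1.02) lay above 0. The list leaves out panel genes that myeloid cells also express, and these went both ways. Examples are *Cxcr2* (1.90), *Il1a* (1.74) and *Tnf* (0.93) above 0 and *Il1rn* (-1.17) below. The median of the list is thus not a measure of myeloid content. Their summed level (log2, against the reference genes) was -1.79 and -0.98 for E-sel/AAV2/2 against -1.31 and 1.40 for LacZ/AAV2/2. It was highest on LacZ/AAV2/2 replicate 2, the array on which *Cxcl12* and *Cx3cl1* were also highest. *Pf4* (-ΔCt of -4.04) and the median of all genes tested were highest on that array too. The median -ΔCt was -7.90 there, against -8.82 on LacZ/AAV2/2 replicate 1 and -7.98 and -8.73 on E-sel/AAV2/2 replicates 1 and 2. *Vegfa* was highest on LacZ/AAV2/2 replicate 1 instead (-2.22). Nearly all of the myeloid sum was the chemokine *Ccl6*, whose own -ΔCt was -1.97 and -1.06 for E-sel/AAV2/2 against -1.49 and 1.32 for LacZ/AAV2/2. *Ccr1*, close to *Cxcl12* in course, is one of these myeloid genes. The 8 lymphocyte genes, also detected on every array, had estimates above 0. Their median was 1.83, 1 was called higher and none lower, and 5 were higher on both E-sel/AAV2/2 arrays, against 22.1% of all genes tested. The one called was *Cxcr5*, a B cell chemokine receptor, at 5.45 (SE 1.07, limma adjusted p = 0.00624). Its Ct was 38.23 and 34.99 in the LacZ/AAV2/2 pool, and the call was lost without E-sel/AAV2/2 replicate 1 (limma adjusted p = 0.324), without E-sel/AAV2/2 replicate 2 (0.189) and with *B2m* alone (0.0573). The median of the list was 0.97 without E-sel/AAV2/2 replicate 1, 2.78 without E-sel/AAV2/2 replicate 2, 0.81 with Ct capped at 35 and 0.39 with *B2m* alone. The summed lymphocyte level was -2.21 and -3.63 with E-sel/AAV2/2 and -4.88 and -4.91 with LacZ/AAV2/2, whereas none of the 4 genes was higher on both E-sel/AAV2/2 arrays. The larger part of the lymphocyte sum was *Il2rg* and *Ltb* on every array. The -ΔCt of *Il2rg* was -3.37 and -4.99 with E-sel/AAV2/2 against -5.60 and -5.63 with LacZ/AAV2/2. That of *Ltb* was -3.55 and -4.99 against -6.81 and -8.98. No gene of the panel was used as a marker of platelets, and whether *Pf4* followed platelet content was not tested. The part of myeloid content, of the late reverse transcription control on LacZ/AAV2/2 replicate 2 or of the reference genes in the values of *Cxcl12* and *Cx3cl1* was not tested.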

How the data were processed

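Total RNA of ischemic muscle was assayed on 4 SYBR Green RT-qPCR arrays of 96 wells, 2 per group. Per the labels RNA was extracted with a column kit and treated with DNase, and the methods name TRIzol. The authors deposited Ct values per well, not normalized, and a table of their own fold ratios, from which only gene symbols were read. Baseline and threshold settings were not given in the sources used here. Depth has no counterpart in these data: template number limits precision, most of all at late Ct.

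ΔCt was taken against the mean of 5 reference genes, following the methods. The groups were compared on -ΔCt (limma 3.58.1, R 4.3.3; two-sided, no covariate, no paired term), with Benjamini-Hochberg adjustment across the 77 targets having a Ct on all 4 arrays. The other 7 were left out. Ratios used an exact permutation test (scipy 1.17.1). Tested on simulated data of this size and spread, the estimates centred on the simulated differences, but smaller differences were rarely called. Figures used matplotlib 3.10.9.

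The members and lists were chosen with earlier results of these data known. The genes named were the 4 members, the reference genes, the 2 genes nearest in course to each member, and of each vessel-related list the called genes and the extremes. *Cxcl10* and *Cxcr3* were named in addition, after their values were seen, and so were *Cxcr5*, *Ccl6*, *Il1a*, *Il1b*, *Il1rn*, *Osm*, *Il2rg* and *Ltb*. A gene that this rule names is not reported here. The CXCR2 list was *Cxcl1*, *Cxcl5*, *Cxcl15* and *Cxcr2*. The CXCR3 list was *Cxcl9*, *Cxcl10*, *Cxcl11* and *Cxcr3*. Other vessel ligands were *Aimp1*, *Bmp2*, *Ccl2*, *Il1b*, *Mif*, *Nampt*, *Spp1* and *Tnf*. Lymphocyte genes were *Cd40lg*, *Cxcr3*, *Cxcr5*, *Fasl*, *Il2rb*, *Il2rg*, *Lta* and *Ltb*. Myeloid genes were *Ccl3*, *Ccl4*, *Ccl6*, *Ccl9*, *Ccr1*, *Ccr2*, *Il1b* and *Osm*. Alternatives were other references, treatment of late and missing Ct values, each array left out, the replicate block, a variance trend and other averaging.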

Additional observations from a re-analysis of the deposited data

How the results depend on the processing

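None of the 4 genes was called under any setting tried, and *Cxcl12* and *Cx3cl1* kept an estimate below 0 throughout (-2.62 to -0.06 and -3.56 to -0.94). *Vegfa* turned above 0 without *B2m* among the references (0.013), with *Gapdh* alone (0.77), with *Gusb* alone (0.28) and with raw Ct (0.20), and its values with one array left out ran from -0.82 to 0.12. *Pf4* turned above 0 in the same settings (0.16, 0.91, 0.42 and 0.34) and with *Hsp90ab1* alone (0.025). The *Vegfa* to *Pf4* ratio ran from -0.75 to 0.46 with one array left out. The number of genes called across the panel was 4. It was 0 with *B2m* alone, where 26 genes had an unadjusted limma p-value under 0.05, and 7 with *Gapdh* or with *Gusb* alone. With one array left out it ran from 0 to 6, and it was 0 without either E-sel/AAV2/2 array, where 8 and 7 genes passed 0.05 before adjustment. A group with 1 array left is assumed to vary like the other. The cause of these changes was not tested. *Cx3cl1* was not tested where a Ct under 35 was required on all arrays.

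The labels tie no batch to the replicate numbers. The deviation of replicate 1 from its group mean correlated at 0.332 between the 2 groups over the 77 genes (genes are not independent replicates). With only 2 pairs this does not show that the numbers pair the arrays. With the replicate block 5 genes were called, none of the 4 described here, and their log2 fold changes stayed -0.35, -1.18, -2.12 and -0.20. Each difference compares 1 pool with 1 pool, and late Ct limits *Cx3cl1* most.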
